A study of Mus musculus with 2 samples.

Results

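Interferon-stimulated genes were followed in myocardial B cells of neonatal and adult mice. The set was a fixed list of 42 genes named as interferon-stimulated. It was chosen with earlier results of these data known, so it is not independent of them. The table of 31053 genes has no row for Mx2, which the GENCODE annotation of GRCm38 types as a polymorphic pseudogene, so 41 of the 42 genes were counted. Each was read over the droplets of both libraries that held at least 2000 gene UMIs (unique molecular identifiers, each marking 1 captured mRNA molecule), at most 10% mitochondrial UMIs and a UMI of Cd79a, a chain of the B cell receptor.

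Interferons are secreted when cells sense the nucleic acids of a virus, or their own in the wrong place. Type I interferons bind a receptor made of IFNAR1 and IFNAR2, whose kinases phosphorylate STAT2, which joins IRF9 in the complex ISGF3. ISGF3 binds a short promoter motif, the interferon-stimulated response element, and turns on genes that block viral replication, sense nucleic acids, present antigen or damp the response again. Some of these genes are also kept at a low level in resting cells, while others are nearly silent until interferon arrives.

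The study asked how B cells of the heart change with age. For each age, living B cells of 6 wild-type C57BL6/J mice were pooled in 2 tubes of 3 hearts for staining, sorted and sequenced as 1 droplet library, with the same digestion and on the same day. The neonatal mice were 2 weeks old, male and female pooled, and the adult mice were 8 weeks old and male. The labels name no treatment or transgene for either group. Age, pool and library cannot be told apart, and sex only in part, through cells with a Y-linked UMI and no Xist UMI. There is no replicate, and every interval below is an exact 95% interval that covers counting error only.

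The rule left 2077 neonatal cells with 16403180 gene UMIs and a median of 6000 UMIs per cell, and 3611 adult cells with 34623240 gene UMIs and a median of 6131. It set aside 416 neonatal and 505 adult droplets for their mitochondrial share and 14 and 4 more for want of a Cd79a UMI, and 2 barcodes passed in both libraries. A level is given as counts per 1000000, that is, UMIs of a gene over the gene UMIs of all cells of the library, scaled to that total (CPM). The 3′ chemistry counts 1 UMI per captured transcript whatever its length, so levels of different genes were set side by side without a length correction.

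The promoter bases of 7 of the genes are shown because these genes span the patterns described below. Ifit3b, Ifit3, Ifit1 and Cxcl10 were held mostly by few adult cells, Isg15 had the most copies of the motif, Oas1a was higher in the adult library also among cells that held little of the other genes, and Sp100 was at nearly the same level in both libraries. Each stretch is the 250 bases before the RefSeq transcription start in GRCm38.p6, read 5′ to 3′ on the strand of the gene, and capitals mark matches to the core of the response element, GAAANNGAAA or its reverse complement TTTCNNTTTC. The stretches lie at chr19:34607707-34607956 (plus strand), chr19:34583279-34583528 (plus), chr19:34640639-34640888 (plus), chr5:92348890-92349139 (minus), chr4:156200819-156201068 (minus), chr5:120907526-120907775 (minus) and chr1:85649738-85649987 (plus).
Ifit3b: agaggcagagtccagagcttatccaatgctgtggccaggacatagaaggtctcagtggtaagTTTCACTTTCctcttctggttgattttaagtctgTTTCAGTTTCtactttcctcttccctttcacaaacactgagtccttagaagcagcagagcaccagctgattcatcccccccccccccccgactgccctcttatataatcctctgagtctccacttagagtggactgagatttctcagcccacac
Ifit3: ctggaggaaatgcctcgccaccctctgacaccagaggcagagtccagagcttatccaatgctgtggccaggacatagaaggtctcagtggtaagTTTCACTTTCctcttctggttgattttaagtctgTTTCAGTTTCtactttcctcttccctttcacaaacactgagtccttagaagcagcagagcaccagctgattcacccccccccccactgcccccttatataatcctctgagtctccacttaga
Ifit1: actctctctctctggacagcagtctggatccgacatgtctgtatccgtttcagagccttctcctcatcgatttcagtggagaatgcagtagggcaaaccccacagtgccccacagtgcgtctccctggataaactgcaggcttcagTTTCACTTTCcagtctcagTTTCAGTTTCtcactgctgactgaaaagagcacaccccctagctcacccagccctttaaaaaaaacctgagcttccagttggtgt
Cxcl10: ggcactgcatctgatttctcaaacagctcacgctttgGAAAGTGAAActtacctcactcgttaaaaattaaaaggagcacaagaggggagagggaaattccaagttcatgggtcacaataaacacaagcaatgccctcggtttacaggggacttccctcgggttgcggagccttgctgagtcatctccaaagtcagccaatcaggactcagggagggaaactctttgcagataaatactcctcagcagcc
Isg15: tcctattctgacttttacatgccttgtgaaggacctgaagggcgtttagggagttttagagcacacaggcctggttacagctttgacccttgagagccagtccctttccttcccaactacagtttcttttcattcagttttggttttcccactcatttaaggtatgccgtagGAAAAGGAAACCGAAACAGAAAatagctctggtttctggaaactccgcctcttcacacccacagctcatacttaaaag
Oas1a: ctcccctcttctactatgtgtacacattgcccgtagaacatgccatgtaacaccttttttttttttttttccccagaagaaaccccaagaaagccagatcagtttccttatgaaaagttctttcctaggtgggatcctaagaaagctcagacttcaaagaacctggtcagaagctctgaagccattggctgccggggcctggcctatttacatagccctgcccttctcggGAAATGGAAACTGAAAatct
Sp100: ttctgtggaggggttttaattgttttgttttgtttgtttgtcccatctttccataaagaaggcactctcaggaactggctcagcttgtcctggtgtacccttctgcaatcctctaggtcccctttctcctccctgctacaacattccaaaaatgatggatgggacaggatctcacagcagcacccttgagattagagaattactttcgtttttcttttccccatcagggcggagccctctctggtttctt

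The stretches of Ifit3 and Ifit3b, neighbors on chromosome 19 that are near-identical copies, carry the same pair of matches in the same surroundings, and in Ifit1 a similar pair lies closer to the start. The 3 matches of Isg15 and both matches of Oas1a overlap each other. RefSeq windows from 250 bases before to 50 bases after a start were at hand for 32 of the 42 genes, and 17 of them (53.1%) held the motif on either strand, against 1079 of 27025 genes (3.99%) with such a window. Among genes at least 2-fold higher in the adult library the motif was found in 10 of 16, and among the other genes in 7 of 16. The motif TTCNNNGAA, the gamma-activated site of genes induced by interferon-gamma, was found in 7 of the 32 (21.9%) against 9.55% of all genes. A match is a run of letters and not a shown binding site, and genes without one may carry a variant of the motif or carry it elsewhere.

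As a group, the interferon-stimulated genes were higher in adult than in neonatal heart B cells. At least 2-fold higher in the adult library were 21 of the 41 genes, against 4.6% of the 11878 genes with at least 20 UMIs. The 21 include Ifi44, which met this minimum only through its 20 adult UMIs and was called by a bound. With each cell thinned at random to 2000 UMIs, that bound was -0.38. None of the 41 was at least 2-fold lower, against 5.57% of all genes, and the other 20 lay under 2-fold. The median log2 ratio of adult over neonatal was 1.13 for the 41 genes, with Cxcl10 and Ifi44 at the lower bounds given below, and -0.13 for all genes. The counting interval lay above 0 for 40 of the 41, with Sp100 as the exception. The sum of the 41 genes differed less, with 1720 and 2512 CPM, a log2 ratio of 0.55 (0.53 to 0.57), since Ifi27l2a and Sp100, which hardly differed, made up 53.3% of the neonatal and 39.2% of the adult sum.

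**Figure D1:**
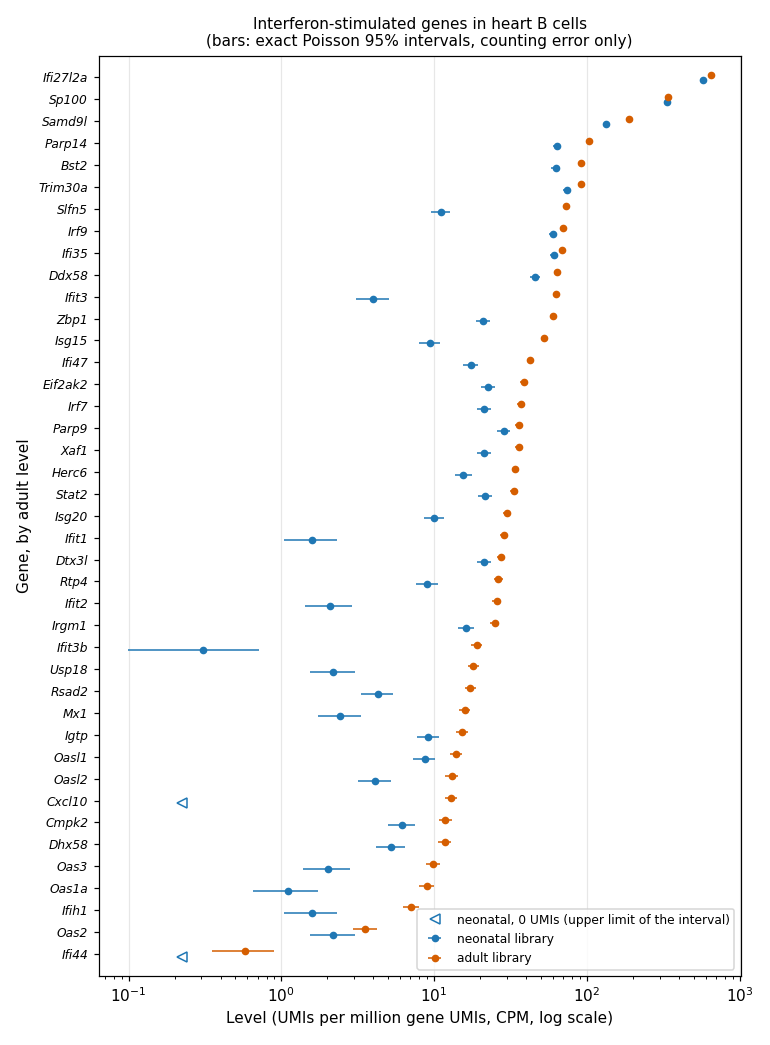
Level of the 41 interferon-stimulated genes (CPM, log axis) in the neonatal (blue) and adult (orange) library, ordered by adult level, with exact Poisson 95% intervals and open arrows at the upper limit for genes with 0 UMIs. The libraries lie close together for the most abundant genes and far apart for Slfn5, Ifit3, Isg15, Ifit1, Ifit2, Ifit3b and Cxcl10.

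High ratios were found in the 4 IFIT genes, whose proteins bind viral RNA and hinder its translation. Ifit3 (ENSMUSG00000074896) had 3.96 CPM (3.06 to 5.05) in the neonatal and 63.1 CPM (60.5 to 65.8) in the adult library, a log2 ratio of 3.99 (3.64 to 4.37). Ifit1 rose from 1.59 to 28.7 CPM, a log2 ratio of 4.18 (3.62 to 4.80). Ifit2 rose from 2.07 to 25.7 CPM, a log2 ratio of 3.63 (3.14 to 4.17). All 3 were scarce in neonatal cells. A UMI of Ifit3 was found, as sequenced, in 34 of the 2077 neonatal and 344 of the 3611 adult cells. Ifit3b (ENSMUSG00000062488) had 5 neonatal and 657 adult UMIs, a log2 ratio of 5.96 with a wide interval of 4.73 to 7.59. Its transcript is nearly the same as that of Ifit3, and the division of reads between both copies is uncertain.

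Of the ISG15 system, which ties a ubiquitin-like protein to other proteins, all 3 genes on the list were at least 2-fold higher. Isg15 itself rose from 9.39 CPM (7.96 to 10.99) to 52.8 CPM (50.4 to 55.3), a log2 ratio of 2.49 (2.25 to 2.74). Usp18, the protease that takes ISG15 off again and that restrains the receptor IFNAR2, rose from 2.19 to 18.1 CPM, a log2 ratio of 3.04 (2.56 to 3.57). Herc6, the ligase that attaches ISG15 in mice, rose less, from 15.5 to 34.1 CPM, a log2 ratio of 1.13 (0.94 to 1.33). Outside the list, Ube2l6, which encodes the conjugating enzyme, had a log2 ratio of 1.09 (0.76 to 1.43). Uba7, which encodes the activating enzyme, had one of 0.12 (-0.05 to 0.30).

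The OAS family senses double-stranded RNA and makes the oligoadenylate that activates RNase L. Oas1a had 1.10 CPM in the neonatal and 8.92 CPM in the adult library, a log2 ratio of 3.02 (2.34 to 3.80) that rests on 18 and 309 UMIs. Oas3 rose from 2.01 to 9.88 CPM and Oasl2 from 4.08 to 13.0 CPM, log2 ratios of 2.30 and 1.67. The other members lay under 2-fold, and both had a log2 ratio of 0.69: Oas2, at 2.19 and 3.55 CPM, and Oasl1, which encodes a repressor of Irf7 translation, at 8.66 and 14.0 CPM.

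Among sensors of nucleic acids in the cytosol, the ratios differed widely. Ifih1, which encodes the long-RNA sensor MDA5, rose from 1.59 to 7.08 CPM, a log2 ratio of 2.16 (1.57 to 2.80). Ddx58, which encodes RIG-I, was abundant at both ages, at 45.6 and 63.3 CPM, and its log2 ratio was 0.47 (0.35 to 0.60). Dhx58, which encodes their regulator LGP2, rose from 5.24 to 11.8 CPM, a log2 ratio of 1.17 (0.83 to 1.52). Zbp1, a sensor of Z-form nucleic acid that can start necroptosis, rose from 20.97 to 59.6 CPM, a log2 ratio of 1.51 (1.34 to 1.68). Eif2ak2, which encodes the kinase PKR that stops translation on double-stranded RNA, lay at 22.6 and 38.7 CPM, a log2 ratio of 0.78.

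The transcription factors of the pathway differed less than their targets. Irf9 and Stat2, which are parts of ISGF3, had log2 ratios of 0.21 (0.10 to 0.32) and 0.62 (0.44 to 0.79), with Irf9 at 60.2 and 69.6 CPM and Stat2 at 21.6 and 33.2 CPM. Irf7, the factor that widens the production of type I interferon, lay at 21.3 and 37.0 CPM, a log2 ratio of 0.79 (0.62 to 0.97). None of the 3 reached 2-fold.

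The direct antiviral effectors fell on both sides of 2-fold. Slfn5, a member of the Schlafen family, rose in level from 11.03 CPM (9.485 to 12.8) to 73.1 CPM (70.3 to 76.0), a log2 ratio of 2.73 (2.51 to 2.95). The transcript of Mx1, a gene of the MX family of GTPases, rose from 2.44 to 15.9 CPM, a log2 ratio of 2.71 (2.24 to 3.21). Whether a working MX1 protein is made in this strain was not tested. Rsad2, which encodes viperin, rose from 4.27 to 17.3 CPM, a log2 ratio of 2.02 (1.66 to 2.40), while its chromosomal neighbor Cmpk2, a mitochondrial nucleotide kinase, stayed just under 2-fold at 6.16 and 11.8 CPM and a log2 ratio of 0.94 (0.62 to 1.27). Isg20, an exonuclease, rose from 10.0 to 30.0 CPM, and Rtp4, a receptor-transporting protein, from 8.96 to 26.3 CPM, log2 ratios of 1.58 and 1.55. Ifi44 was barely measured, with 0 neonatal UMIs and 20 adult UMIs in 10 cells. A floor of 3 counts put the bound on its log2 ratio at 1.66, and the exact lower limit was 1.23.

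The effectors under 2-fold included the most abundant genes of the list. Ifi27l2a, which encodes a small mitochondrial protein, had the highest level of all, 580 CPM (569 to 592) in the neonatal and 645 CPM (637 to 654) in the adult library, a log2 ratio of 0.15 (0.12 to 0.19). Sp100, a component of nuclear bodies, followed with 336 and 340 CPM, a log2 ratio of 0.02 (-0.03 to 0.06), which allows at most a small difference by counting error. Samd9l, a brake on translation, came next with 134 and 189 CPM, a log2 ratio of 0.50 (0.43 to 0.57). Bst2, which encodes the virion tether also known as tetherin, lay at 62.4 and 92.1 CPM, a log2 ratio of 0.56 (0.46 to 0.67). Ifi35 lay at 61.0 and 68.7 CPM, a log2 ratio of 0.17, and Xaf1, an antagonist of apoptosis inhibitors, at 21.3 and 35.8 CPM, a log2 ratio of 0.75.

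Of the 3 immunity-related GTPases, which disrupt the vacuoles of intracellular parasites, Ifi47 rose from 17.3 to 42.5 CPM, a log2 ratio of 1.30 (1.11 to 1.48). Igtp and Irgm1 had log2 ratios of 0.74 and 0.63, at adult levels of 15.2 and 25.04 CPM. Igtp shares its strand and part of its locus with Irgm2, and Ifi47 with Olfr56, so reads could be divided between these genes. The other 4 genes of the list that encode enzymes of ADP-ribosylation or ubiquitination, or their partners, were under 2-fold. Parp14 had log2 ratio 0.71 (63.6 and 104 CPM), and Parp9 and its partner Dtx3l, which lie head to head on chromosome 16 and overlap on opposite strands, had 0.33 and 0.36. Trim30a, a ubiquitin ligase of the TRIM family, had 0.30 (74.3 and 91.7 CPM).

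Cxcl10 (ENSMUSG00000034855), the chemokine that draws cells with the receptor CXCR3, was the 1 secreted factor of the list. It had 0 UMIs in the neonatal library and 446 UMIs (12.9 CPM, 11.7 to 14.1) in the adult library, spread over only 58 of the 3611 cells. Set against a floor of 3 counts in the neonatal library, the bound on its log2 ratio was 6.14, and the exact lower limit was 5.83. A single cell held 12.8% of the adult UMIs, and without that cell the bound was 5.94. Over neonatal cells thinned to 2000 UMIs, 0 of 2077 with a UMI allows, by the floor of 3 counts, a share of up to 0.144% of cells with one (exact upper limit 0.177%), and the adult share was 0.831% (0.561 to 1.18%).

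Whether a gene rose over many adult cells or in few was read by ranking the cells of each library on the other genes of the list. The rank was the number of UMIs of the other 40 genes after each cell had been thinned to 2000 UMIs, and the 5% of cells with the highest rank (104 neonatal, 181 adult) were set aside. The gene itself never entered its own rank. For Ifit3 and Ifit3b, near-identical copies whose reads are divided uncertainly, a transcript of one may have counted in the rank of the other. Over the other 95% of cells, 20 of the 41 genes were still at least 2-fold higher in the adult library, against 4.62% of all genes, and the median log2 ratio of the list was 0.84. Herc6 was the 1 gene that fell below 2-fold, from 1.13 to 0.84, and Ifi47 stayed just above it, at 1.01 (0.80 to 1.23). With Ifi27l2a left out of the rank, a choice made after seeing the data, Ifi47 (0.92) and Dhx58 (0.98) fell below 2-fold too. So by summed counts and the rank on all 40 other genes, the top cells were not needed for the call in 20 of 21 genes. This does not show a rise over many cells, since cells rich in these genes remained in the other 95%. By a rank on the whole list, the top 5% held 158 of the 211 adult cells with at least 8 genes at 2000 UMIs. In the neonatal library they held 40 of 48. The top cells still held much of the difference: between 28.5% (Oas1a) and 78.5% (Ifit3b) of it, with a median of 54.3%.

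**Figure D2:**
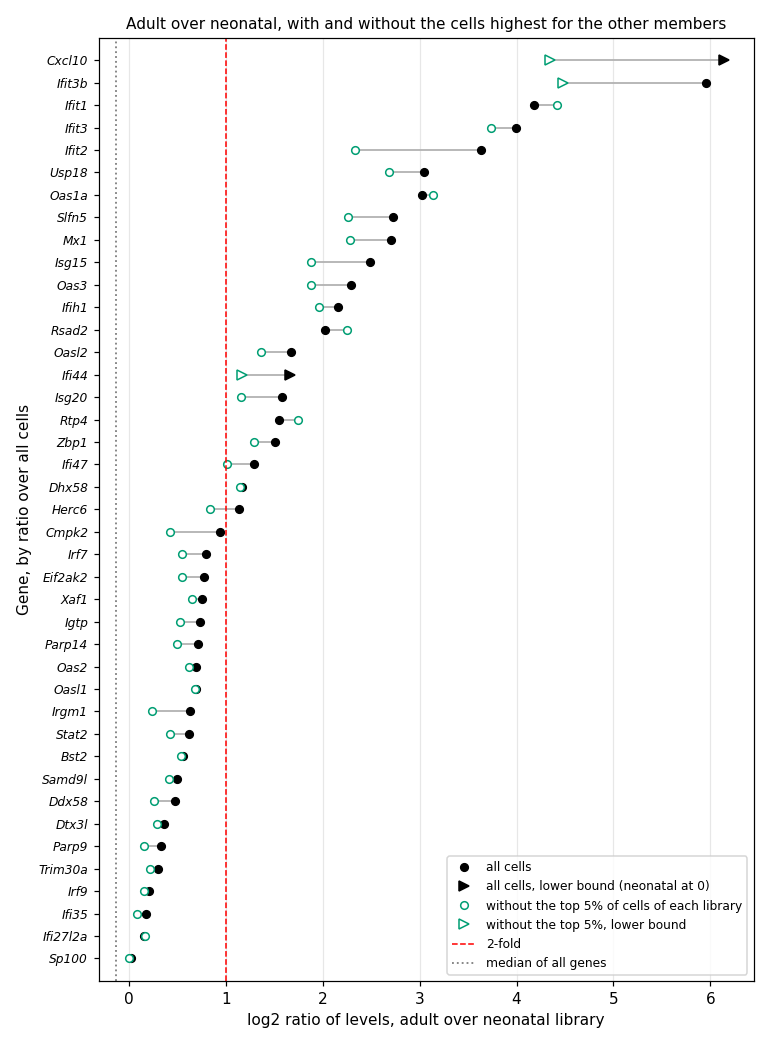
Log2 ratio of adult over neonatal level for the 41 genes over all cells (black) and over the 95% of cells of each library that ranked lower for the other genes of the list (green, open), with arrows for lower bounds where the neonatal count is 0, the 2-fold line in red and the median of all genes dotted. Most genes keep their order. Cxcl10, Ifit3b and Ifit2 move most. The rank of the other genes includes Ifi27l2a. By this rank Ifit1, Rsad2, Rtp4, Oas1a and, slightly, Ifi27l2a itself lie higher without the top cells.

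Ifit2 lost most among genes with neonatal UMIs in both sets, from 3.63 to 2.34 (1.76 to 2.96), followed by Isg15, from 2.49 to 1.88 (1.58 to 2.19). By the rank that included Ifi27l2a, Ifit1 and Oas1a kept their ratios. Over the other 95% they stood at 4.41 (3.35 to 5.74) and 3.14 (2.30 to 4.11), although only 7 and 12 neonatal UMIs remained. With Ifi27l2a left out of the rank, Ifit1 stood at 3.55, below its 4.18 over all cells, while Oas1a stayed close to its ratio. By the rank that included Ifi27l2a, Ifit3 stood at 3.74 (3.095 to 4.46) and Usp18 at 2.68 (1.99 to 3.46). Mx1 stood at 2.28 (1.66 to 2.97) and Slfn5 at 2.27 (1.99 to 2.56). Ifi44, Cxcl10 and Ifit3b counted as higher by their bounds against 0 neonatal UMIs, which were 1.17, 4.35 and 4.48. The exact lower limits were 0.68, 4.03 and 4.16, so that of Ifi44 lay under 2-fold. The bounds of Ifi44 and Cxcl10 rest on single cells: without the cell with 6 of its 20 UMIs the bound of Ifi44 fell to 0.36, which ends its call, and without 1 cell that of Cxcl10 fell to 3.49.

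Counting was sparse in these comparisons, and the number of genes depends on how deep cells weigh. When the UMIs of each cell were first thinned to 2000, so that every cell had the same weight, 12 of the genes were at least 2-fold higher outside the top 5% in place of 20. These were Rtp4, Ifih1, Isg15, Mx1, Slfn5, Oas1a, Usp18, Ifit1, Ifit2, Ifit3, Ifit3b and Cxcl10. Over all thinned cells 19 genes were at least 2-fold higher.

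Going further down the rank, the 50% of cells with the fewest UMIs of the other genes (1039 neonatal, 1805 adult) were compared. Of the 39 genes with at least 20 UMIs there, 12 were at least 2-fold higher in the adult library, against 3.63% of all genes, and 20 had a counting interval above 0. Slfn5 had 29 neonatal and 217 adult UMIs in these cells, a log2 ratio of 2.10 (1.54 to 2.72). Isg15 had 34 and 170 UMIs, a log2 ratio of 1.52 (0.98 to 2.09), and Rtp4 had 19 and 90 UMIs, a log2 ratio of 1.44 (0.71 to 2.23). Oas1a had 3 and 51 UMIs, a log2 ratio of 3.28 (1.65 to 5.61). Slfn5 and Oas1a were thus higher in adult cells that held few transcripts of the rest of the list. RNA free in the suspension would give 6.46 of the 217 Slfn5 UMIs and 0.602 of the 51 Oas1a UMIs, if each cell took up as much as a near-empty droplet of the adult library. Of the 65 Cxcl10 UMIs in the lower 50% of adult cells, 57 were in 1 cell. It had only 2 UMIs of the other genes at 2000, unlike the cells with the next highest counts, 51 and 28, which had 39 and 54. Cxcl10 is among the 12 genes by its bound against 0 neonatal UMIs. Without the cell with 57 UMIs, 8 were left, under the minimum of 20, so this call rests on that cell.

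The genes differed in how strongly few cells held their transcripts. In the adult library the top 5% of cells had 78.8% of the UMIs of Ifit3b, 74.7% of Ifit3, 71.5% of Cxcl10, 68.8% of Ifit1, 68.2% of Ifit2, 65.3% of Rsad2, 61.7% of Usp18 and 57.9% of Mx1. For 11 of the 41 genes the top cells had more than 50% of the UMIs, the others being Isg15, Slfn5 and Ifih1. At the other end stood Samd9l with 14.4%, Ifi27l2a with 13.4%, Irf9 with 12.5% and Sp100 with 10.8%. Oas1a stood apart from the other genes with a high ratio, with 29.1% of its UMIs in the top cells.

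**Figure D3:**
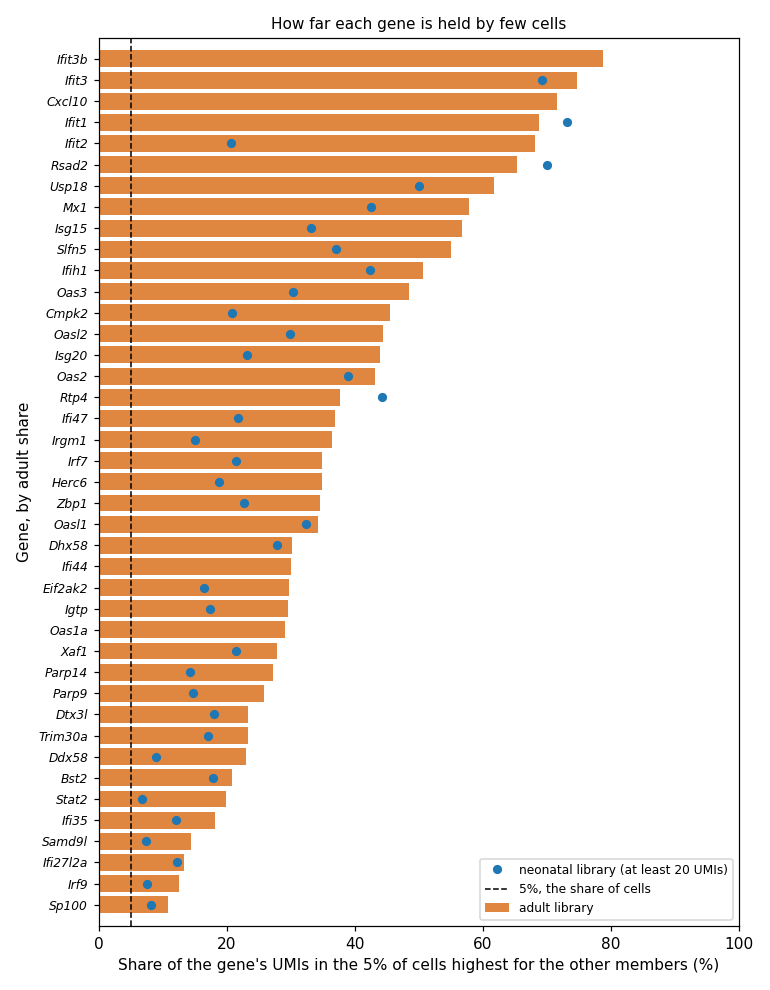
Share of each gene's UMIs (%) held by the 5% of cells that ranked highest for the other genes of the list, in the adult library (orange bars) and, for genes with at least 20 neonatal UMIs, in the neonatal library (blue points), with 5% marked. The adult bars run from 10.8% for Sp100 to 78.8% for Ifit3b, and the neonatal share of Ifit2 (20.6%) lies far below its adult share (68.2%).

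Expressed as levels, Ifit3 had 756 CPM in the top 5% of adult cells and 17.0 CPM in the other 95%, a 44.5-fold difference. In the neonatal library the levels were 62.0 and 1.28 CPM. Isg15 had 515 and 24.2 CPM in adult cells and 70.3 and 6.57 CPM in neonatal cells. Ifi27l2a showed another pattern, with 1321 and 598 CPM in adult and 1637 and 532 CPM in neonatal cells, so its level in the neonatal top cells was the higher one. Trim30a was at a like level in the top cells of both libraries, 346 CPM in adult and 297 CPM in neonatal cells.

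In the adult library, 40 of the 41 genes were at least 2-fold higher in the cells that ranked high for the other genes, against 4.09% of 11266 genes with at least 20 adult UMIs. The exception was again Sp100, at 1.89-fold. The median enrichment was 8.26-fold for the list and 0.909-fold for all genes. In the neonatal library 33 of the 37 genes with at least 20 UMIs were enriched, against 5.01% of all genes, with a median of 5.91-fold. The exceptions there were Sp100, Irf9, Samd9l and Stat2, at 1.85-, 1.76-, 1.64- and 1.56-fold. At both ages, most genes of the list were thus enriched in cells that ranked high for the others. Some neonatal enrichments rest on few UMIs in the top cells, such as 7 for Ifit2 and 10 for Oas3.

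The top adult cells were deeper than the others, with a median of 8429 UMIs against 5975, whereas the top neonatal cells were not, with 5455.5 against 6018. When the cells of a library were put into 3 groups of equal size by their UMIs, the summed level of the list was 1583, 2566 and 2682 CPM in adult cells, from the shallowest group to the deepest, and 1828, 1746 and 1671 CPM in neonatal cells. In the group with the fewest UMIs the neonatal sum was therefore the higher one. The part of cell depth in the differences between the ages was not tested beyond the thinning above.

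The number of interferon-stimulated genes found in 1 cell was compared at 2000 UMIs per cell. The median was 2 genes in both libraries, and 10.2% of neonatal and 7.34% of adult cells had none. The libraries parted in the tail: at least 8 genes were found in 48 neonatal cells, 2.31% (1.71 to 3.05%), and in 211 adult cells, 5.84% (5.10 to 6.66%). At least 15 genes were found in 3 neonatal and 70 adult cells, and at least 20 in 0 neonatal and 38 adult cells. The highest number was 19 in a neonatal and 31 in an adult cell.

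**Figure D4:**
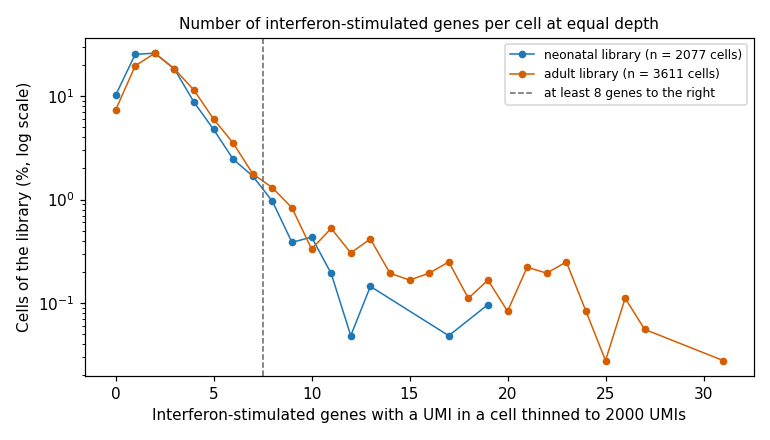
Share of cells (%, log axis) by the number of interferon-stimulated genes with a UMI after thinning each cell to 2000 UMIs, in the neonatal (blue) and adult (orange) library; numbers found in no cell are left out. The curves lie close together up to 7 genes and part in the tail, with adult cells reaching 31 genes and neonatal cells 19.

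The rank of the adult cells had no gap at the limit of the top 5%, which lay at 13 UMIs of the list per 2000, with 21 cells at it and 62 within 1 UMI. The top cells are thus defined by a limit on a score and are not called a cell type. In the top 5%, the median number of genes per cell was 13 in adult and 7 in neonatal cells.

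Adult cells of the top 5% were found in each of the 4 classes set by the transcripts Cr2 and Fcer2a. These genes encode CD21 and CD23, the surface proteins that part marginal zone from follicular B cells. Of adult cells with both transcripts, 3.12% (1.51 to 5.67%) were among the top 5%, and of those with Fcer2a only, 3.03% (2.13 to 4.17%). The shares were 6.82% (4.42 to 9.98%) with Cr2 only and 6.34% (5.24 to 7.58%) with neither. The summed level of the list was likewise lower in both classes with Fcer2a, with 2134 CPM with Fcer2a only, 2155 CPM with both, 2659 CPM with Cr2 only and 2740 CPM with neither. In the neonatal library, it was 1540 CPM with Fcer2a only and 1778 CPM with neither. A transcript missed by shallow counting puts a cell in the wrong class.

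The genes also differed in how far their counts went with the rest of the list in single cells. Over 3611 adult cells at 2000 UMIs, which share 1 library, Pearson's r between a gene and the summed UMIs of the other genes was highest for Ifit3 (0.71), Slfn5 (0.67) and Isg15 (0.66). It was lowest for Ifi44 (0.08), Oas1a (0.13), Irf9 (0.16) and Oas2 (0.16). In neonatal cells the highest values were 0.35 for Ifi27l2a and Trim30a.

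Of the 820 pairs of genes, 446 would be found together in at least 5 adult cells if they were spread independently, and these were found together 2.18 times as often as that (median). At least 2 times as often were 251 of the 446 pairs. The pairs furthest above were Ifit3b with Slfn5, found in 54 cells against 5.45 expected (9.91 times), Ifit1 with Slfn5, in 58 against 6.14 (9.45 times), and Ifit3 with Isg15, in 72 against 7.67 (9.39 times). Next came Ifit1 with Ifi47 (8.65 times) and Ifit2 with Slfn5 (8.11 times). Slfn5 and the IFIT genes thus led the pairs that passed this limit. Pairs of IFIT genes with each other did not reach 5 expected cells and are not ranked. Oas1a with Samd9l (0.962 times), Stat2 with Sp100 (0.985 times) and Oas1a with Sp100 (1.03 times) met as often as independent spread would give. The ratio of a pair cannot exceed the inverse of the share of cells with the commoner gene. This limits pairs with Ifi27l2a, Sp100 and Samd9l, found in 51.0%, 46.9% and 29.5% of adult cells. In the neonatal library 160 pairs reached 5 expected cells, with a median of 1.29 times and 10 pairs at or above 2 times. Over those 160 pairs, the adult median was 1.48 times.

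**Figure D5:**
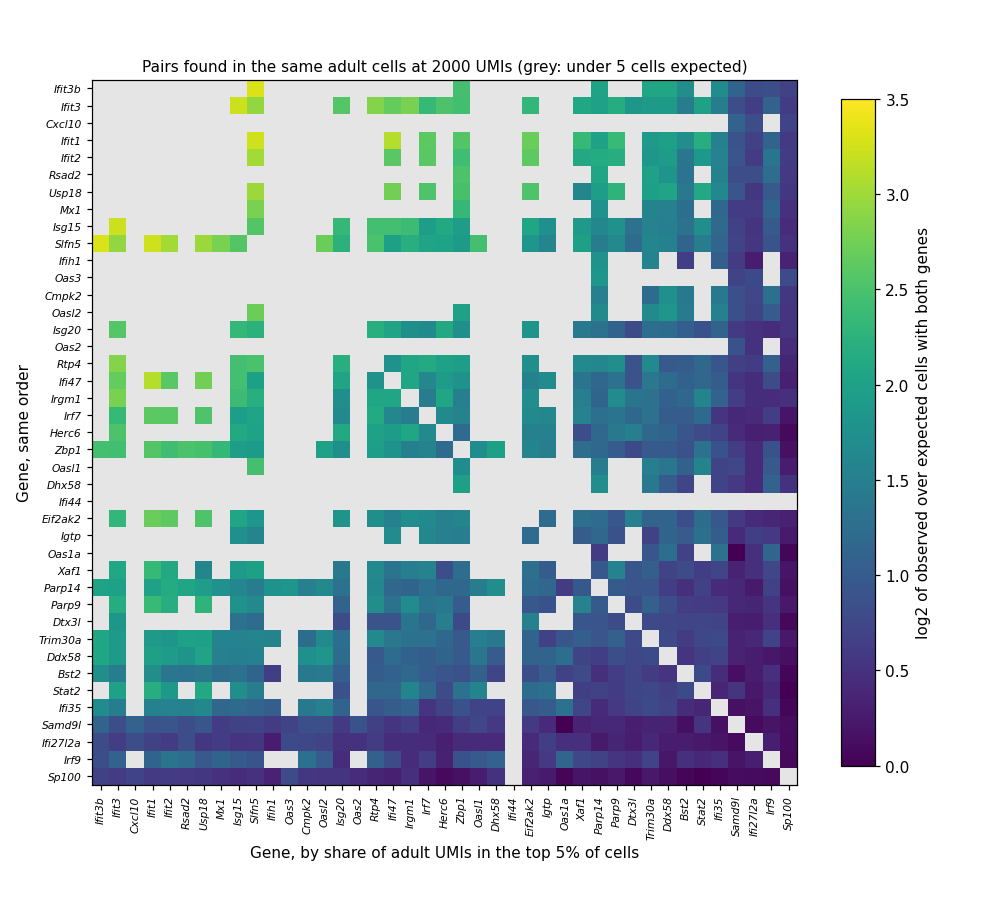
Adult cells with both genes of a pair at 2000 UMIs over the number expected if the genes were spread independently (color, log2), genes in the order of their share of UMIs in the top 5% of cells; grey marks pairs with under 5 cells expected, which hides most pairs of scarce genes. The brightest squares join Slfn5, Isg15 and the IFIT genes (up to 9.91 times). The row of Sp100 is dark throughout, where the ratio is limited because 46.9% of adult cells had this gene.

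The wider pathway was read from 3 lists. Of 20 interferon genes, 19 had 0 UMIs in the cells of both libraries, and Ifng had 25 neonatal and 31 adult UMIs, so no type I interferon transcript was detected at this depth. Of 25 receptor and signaling genes with at least 20 UMIs, 2 were at least 2-fold higher in the adult library (Usp18, also one of the 41 genes, and Tlr3, a sensor of double-stranded RNA), none was lower, against 4.6% and 5.57% of all genes, and the median log2 ratio was -0.03. Of the receptor chains, Ifnar1 lay at 144 CPM in the neonatal and 96.3 CPM in the adult library (-0.58, -0.66 to -0.51), Ifngr1 at 126 and 88.6 CPM (-0.51) and Ifnar2 at 38.9 and 34.6 CPM (-0.17), while Ifngr2 (0.03) and Il10rb (0.15, 0.02 to 0.28) were not lower. Irf1, a transcription factor, had the lowest log2 ratio of the 25 genes, at 90.6 and 52.6 CPM (-0.78, -0.88 to -0.68).

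Of 84 further interferon-responsive genes with at least 20 UMIs, 19 were at least 2-fold higher in the adult library (4.6% of all genes) and 3 lower (5.57% of all genes), with a median log2 ratio of 0.31. At least 2-fold enriched in the top 5% of adult cells were 62, against 4.09% of all genes. The highest ratio was that of Gbp6, a guanylate-binding protein with 2 neonatal and 113 adult UMIs. Ly6a, which encodes the surface protein Sca-1 and was singled out after its value was seen, rose from 127 to 605 CPM, a log2 ratio of 2.25 (2.18 to 2.31), with an enrichment of only 1.81-fold in the top cells. The lower genes were Ifitm1, Ifitm2 and Ly6c2. The genes outside the list with at least 100 adult UMIs that were most enriched in the top adult cells were Trim30c (31.4-fold), Ifi211 (25.4-fold), Ifitm3 (24.9-fold), Tlr3 (19.3-fold) and Ifit1bl1 (13.5-fold), followed by Gbp6, Ccl5, Tgtp2, Phf11a and Slfn1. Ifitm3, which blocks the entry of viruses, had 172 CPM in the top adult cells and 6.91 CPM in the others, and its log2 ratio between the ages was -0.18 over all cells and -1.34 outside the top 5%.

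Markers of other cell types were read in the same cells. Of the 4 neutrophil markers none had a UMI in adult cells, and of the 6 markers of plasmacytoid dendritic cells, which secrete much interferon, Siglech and Klk1 were at 0. Summed, those 6 markers lay at 12.1 CPM in the top adult cells and 9.83 CPM in the others, and 10 adult cells, none of them a top cell, had at least 2. The summed macrophage markers lay at 7.23 CPM in the top adult cells and 17.7 CPM in the others, but at 372 and 79.2 CPM in the neonatal cells, where at least 2 of the 8 markers were found in 16 of 2077 cells and 1 of the 104 top cells. T cell markers lay at 24.1 and 21.4 CPM in top and other adult cells, and NK cell markers at 9.65 and 3.35 CPM. The part of such cells in the ranks was tested only by leaving them out. Without droplets that had 2 markers of another cell type, 20 genes in place of 21 were at least 2-fold higher, and 18 in place of 20 outside the top 5%. Near-empty droplets held the list at 1684 CPM in the neonatal and 2014 CPM in the adult library, with a mean of 55.9 and 92.0 UMIs each, which would supply between 0.517% and 4.20% of the level of each gene in the lower 95% of adult cells.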

How the data were processed

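The authors deposited, for each library, raw UMI counts per gene and droplet barcode, aligned to mm10 and counted with Cell Ranger (3.0.2 in the file headers), with every barcode of the kit and neither normalization nor a call of cells. The annotation used for counting is not given in the sources used here; 99.6% of the gene identifiers were found in GENCODE M21 (GRCm38), which gave the positions. The labels group the samples by age. Rows of 3 antibodies were not used, and 0 columns were left without a sample.

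The genes, the pathway lists and the markers were chosen with earlier results of these data known. With 1 library per age no test across samples exists and no p-value is given. A gene is called higher at a log2 ratio of at least 1 in summed counts, when it had at least 20 UMIs over both libraries, and against 0 UMIs the ratio was set against 3 counts. Intervals are exact (Poisson for levels, binomial for shares, conditional binomial for ratios). Thinning drew UMIs without replacement (seed 1). Ties in the rank went by the share of the list among all UMIs. All 42 genes are accounted for; the fullest account goes to the 10 highest in the adult library, the 8 with the largest ratio outside the top 5%, the 8 most held by the top cells, and those with a ratio below 0. The cell with 57 Cxcl10 UMIs and the cells of Ifi44 were singled out after their values were seen. No doublet caller was run. The sort had excluded doublets, which does not cover droplets that took up more than 1 cell afterwards. An alternative left out the 5% of droplets with most UMIs. Near-empty droplets were those of ranks 45000 to 90000 by UMIs.

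The calculations ran in scipy 1.17.1 and numpy 2.4.6 under Python 3.11.15, with tables in pandas 2.3.3 and plots in matplotlib 3.10.9. Simulated data were drawn with counting error only. Ratios of 200 changed genes among 11878 had the right sign in 99.5%. The true ratio lay within the interval for 96.0% of them and for 95.6% of the other genes. In a simulated library, 20 genes were raised 20-fold in 5% of the cells, the same share as the cut. Of these, 20 were found enriched, and of 20 not raised, 0. Weaker rises were not simulated, and neither were genes as abundant as Ifi27l2a and Sp100, which weigh most in the rank. Promoter windows came from RefSeq (GRCm38.p6). Some genes of the pathway and marker lists are not reported here.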

Additional observations from a re-analysis of the deposited data

How the results depend on the processing

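With 1 library per age every value carries the pool and preparation of that library, and its sexes except where cells of 1 sex alone were used. Counting intervals understate the true error. No paired analysis was possible because each age has 1 library. The alternatives changed the limits on UMIs and mitochondrial share, the Cd79a rule, shared barcodes, droplets with markers of other cells, the deepest droplets, how libraries and cells were scaled, whether cells of 1 sex alone were used, the size and kind of the rank, and the seed. Over them, between 10 and 23 genes were at least 2-fold higher (21 as reported), between 8 and 23 outside the top cells, and between 28 and 40 were enriched in the top adult cells.

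The mitochondrial limit of 5% left 60 neonatal and 156 adult cells and moved most: 10 genes were higher, 8 outside the top cells, the median log2 ratio was 0.49 and that of the sum 0.093, and at least 8 genes were found in 3.85% of adult and 5% of neonatal cells. Under it the log2 ratios of Ifih1 (-1.25), Dhx58 (-0.059) and Herc6 (-0.18), all at least 2-fold higher as reported, changed sign, as did those of Ifi27l2a (-0.65), Cmpk2 (-0.74), Irgm1 (-0.50), Parp9 (-0.15) and Stat2 (-0.11), which had been under 2-fold. The log2 ratio of the sum was 0.67 with at least 5000 UMIs per droplet, where 8.555% of adult cells had at least 8 genes. It was 0.53 without the deepest 5% of droplets, 0.58 in cells with a Y-linked UMI and no Xist UMI, 0.70 with median-of-ratios scaling (median of the list 1.28, all genes shifted by -0.15), 0.37 with every cell thinned to 2000 UMIs (median 0.78, 12 genes outside the top cells) and 0.36 as a mean over cells. With at least 5 in place of 8 genes the shares were 17.1% of adult and 11.2% of neonatal cells. Leaving out Ifi27l2a, an alternative chosen after seeing the data like the rank by number of genes, gave 0.71 for the sum and shares of 4.68% and 1.40%. The share of cells with at least 8 genes has no value at a minimum of 500 UMIs, where cells were thinned further. The causes were not tested. Ratios between low genes are limited by depth: 20 UMIs over both libraries is the smallest count used.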

Other observations

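Droplets left out by the rule held the interferon-stimulated genes too. Those with at least 2000 UMIs and over 10% mitochondrial UMIs had 1474 CPM (1423 to 1526) in the neonatal library (416 droplets) and 2086 CPM (2024 to 2150) in the adult library (505 droplets) for the sum of the list. Droplets with at least 500 but under 2000 UMIs within the mitochondrial limit numbered 60 and 173 and had 1956 CPM (1586 to 2386) and 2264 CPM (2032 to 2514). Those of the same size over the limit numbered 634 and 1336 and had 1262 and 1631 CPM. In each of these sets the adult sum was the higher one.

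Cycling cells, with at least 2 of the 4 markers Mki67, Top2a, Ccnb1 and Birc5, were few. The 26 adult cells had 3216 CPM (3082 to 3354) for the sum of the list and a median of 7.5 UMIs of it at 2000, against 3 over all adult cells. The 14 neonatal cells had 1865 CPM (1732 to 2006) and a median of 3. Adult cells with at least 3 of 8 B1 markers had 2406 CPM (136 cells), and 4 of them (2.94%, 0.807 to 7.36%) were among the top 5%. Neonatal cells with at least 3 of 6 markers of transitional B cells (808 of 2077) had 2042 CPM (2005 to 2080), above the 1720 CPM of all neonatal cells, and 6.81% (5.17 to 8.77%) of them were among the top 5%. In the adult library such cells (813) had 2336 CPM, below the 2512 CPM of all adult cells.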
